A study of Mus musculus with 12 samples.

Results

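The Rap1 switch was measured here as the transcripts of 9 genes: the GTPases *Rap1a* and *Rap1b*, the guanine nucleotide exchange factors *Rapgef1*, *Rapgef2* and *Rapgef5*, and the GTPase-activating proteins *Rap1gap*, *Sipa1*, *Sipa1l1* and *Sipa1l2*. They were taken by symbol from the deposited table of 50978 genes, and 9 of 9 were found. All 9 were among the 12914 genes that passed the filter on low values. RNA was sequenced from mouse embryonic stem cells (ESCs) grown in serum with LIF, in 3 lines with 2 libraries each. Parental ESCs are E14 cells without a transgene. ESC + PRAMEL7 WT carries HA/FLAG-tagged full-length PRAMEL7, a substrate receptor of CUL2 ubiquitin ligases, inserted with Cas9 at the *Rosa26* locus behind the CAG promoter. ESC + PRAMEL7 ΔN carries at the same locus and behind the same promoter a tagged form whose N-terminal 50 amino acids are missing per the labels (the study's text gives a shorter stretch), a deletion meant to remove the contact with CUL2. Both derived lines were isolated from single cells, so that a clone and its transgene cannot be told apart. The 2 libraries of a line came from independent dishes, and P values therefore measure the spread between dishes of one line.

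Rap1 proteins are small GTPases of the Ras family that control integrin-based and cadherin-based adhesion, cell polarity and MAP kinase signalling. Exchange factors load them with GTP and so switch them on, whereas GTPase-activating proteins speed up GTP hydrolysis and switch them off. In ESCs, which grow as compact colonies, cadherin-based contacts hold the cells together. Transcript levels do not show how much of the protein is bound to GTP.

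The comparison of *Rap1a* with *Rap1b* requires that reads of these close relatives can be told apart, so part of their coding sequence is shown. Each has 6 coding exons of matching lengths on the minus strand. Over 552 coding bases without the stop codon, 101 bases differ, of which 78 are at the last position of a codon, and identity is 81.7%. Coding exon 2 encodes the effector region, with which both GTPases contact their partners, and lies at chr3:105745904-105745972 for *Rap1a* and at chr10:117822801-117822869 for *Rap1b* in mm10. It is shown because it is the most similar exon, with 8 differing bases of 69. Capitals mark the bases that differ between the genes, 5′ to 3′ on the coding strand.
Rap1a coding exon 2: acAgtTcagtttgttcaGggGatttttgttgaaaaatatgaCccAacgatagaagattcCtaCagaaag
Rap1b coding exon 2: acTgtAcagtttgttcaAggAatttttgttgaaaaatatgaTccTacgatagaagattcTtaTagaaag
Coding exon 6 encodes the C-terminal tail, with its basic stretch and the cysteine that receives the lipid anchor, and lies at chr3:105731988-105732071 and at chr10:117817377-117817460. It is shown because it is the least similar exon, with 25 differing bases of 84.
Rap1a coding exon 6: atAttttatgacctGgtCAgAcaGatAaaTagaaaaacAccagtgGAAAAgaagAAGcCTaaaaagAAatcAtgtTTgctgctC
Rap1b coding exon 6: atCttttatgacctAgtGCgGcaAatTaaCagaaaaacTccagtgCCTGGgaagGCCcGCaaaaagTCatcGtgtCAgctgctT
In exon 2 all 8 differences are at the last position of a codon, and in exon 6 this holds for 13 of 25. The longest run of coding bases that both genes share is 20 bases, and none of the 453 aligned windows of 100 bases, the length of a read, was identical. In the whole transcripts, 70 of 2771 windows of 100 bases of *Rap1a* (2.53%) were also found in the processed pseudogene *Gm9392*, which had at most 6 reads in a library. For *Rapgef1*, 183 of 7872 windows (2.32%) were also found in the pseudogene *Gm9823*, which had 0 reads. The other members, *Rap1b* included, shared none with another gene.

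Reads on genes numbered between 18253578 and 19854353 per library, and a member had between 163 (*Rap1gap*) and 4176 reads (*Rapgef1*) in a library. Values are given as CPM (reads on a gene scaled to nearly equal library totals), recovered from the deposited RPKM values with the authors' scaling between libraries kept. These totals ran from 990591.6 in ΔN library 1 to 1008455.8 in parental library 1. *Pramel7* itself had 0.26 and 0.22 CPM in parental ESCs, 51.2 and 46.3 CPM in ESC + PRAMEL7 WT and 398 and 430.9 CPM in ESC + PRAMEL7 ΔN, so that the transgene transcripts were not at equal levels in the derived lines (log2 fold change -3.06 for WT over ΔN, standard error 0.11, adjusted P value 6.12e-07). All 10 pluripotency markers examined, among them *Pou5f1*, *Nanog* and *Sox2*, had means of at least 200.9 CPM, and their sum was 5970 to 6358 CPM in parental ESCs, 5717 to 6092 in ESC + PRAMEL7 WT and 6863 to 6936 in ESC + PRAMEL7 ΔN. These markers did not move together in ESC + PRAMEL7 WT. *Klf4* (182.3 and 202.1 CPM, parental 253.2 and 362.3), *Nanog*, *Zfp42*, *Tdgf1* and *Esrrb* were lower there than in both parental libraries. *Pou5f1* (823 and 855.5 CPM, parental 659.4 and 749.8) and *Utf1* were higher, whereas *Sox2*, *Dppa5a* and *Lin28a* overlapped with parental ESCs. The summed level of 6 primitive endoderm markers lay between 3.64 and 5.57 CPM and that of 4 mesoderm markers between 1.47 and 2.89 CPM. The 6 trophectoderm markers summed to 67.2 to 103.2 CPM in parental ESCs, 73.6 to 79.3 in ESC + PRAMEL7 WT and 41.9 to 43.8 in ESC + PRAMEL7 ΔN, mostly from *Tfap2c*. *Eomes* of the same list went the other way, with 4.9 and 4.29 CPM in parental ESCs and 9.14 and 10.6 CPM in ESC + PRAMEL7 ΔN. The 4 neural markers summed to 186.3 to 197, 264 to 267 and 160.8 to 185 CPM in the same order, mostly from *Tubb3*, and the 5 fibroblast markers to 43.7 to 56.9, 22.1 to 23.3 and 38.9 to 43.8 CPM, mostly from *Thy1*. The part of these differences in the results below was not tested.

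Across the 9 members, 1 was called in each comparison, with an adjusted P value under 0.05 from limma over all 12914 genes. *Rap1a* was downregulated in ESC + PRAMEL7 WT relative to parental ESCs, *Rapgef5* was downregulated in ESC + PRAMEL7 ΔN relative to parental ESCs, and *Rap1gap* was higher in ESC + PRAMEL7 WT than in ESC + PRAMEL7 ΔN. In bulk RNA, fewer cells with a transcript and less of it per cell cannot be told apart. The share of members called was 11.1% in each comparison. Over all genes tested it was 25% for ESC + PRAMEL7 WT over parental ESCs (8.71% higher and 16.3% lower), 19.9% for ESC + PRAMEL7 ΔN over parental ESCs (6.25% higher and 13.6% lower) and 20.4% for ESC + PRAMEL7 WT over ESC + PRAMEL7 ΔN (10.9% higher and 9.44% lower). The share of members called was below that of all genes in each comparison, and the difference in shares was not tested. With median-ratio scaling of the libraries, 1673 genes were higher and 1495 lower in ESC + PRAMEL7 WT (1125 and 2109 with the deposited scaling), and 1122 higher and 1368 lower in ESC + PRAMEL7 ΔN (807 and 1759). At an unadjusted P value under 0.05, limma gave 3, 4 and 2 of the 9 members in the 3 comparisons, beside 39.7%, 33.1% and 35.4% of all genes. The median log2 fold change of the members was -0.11 in ESC + PRAMEL7 WT and -0.24 in ESC + PRAMEL7 ΔN relative to parental ESCs, beside -0.08 and -0.06 over all genes, and 0.09 between the derived lines, beside -0.02 over all genes. The comparisons with parental ESCs share the parental libraries.

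**Figure D1:**
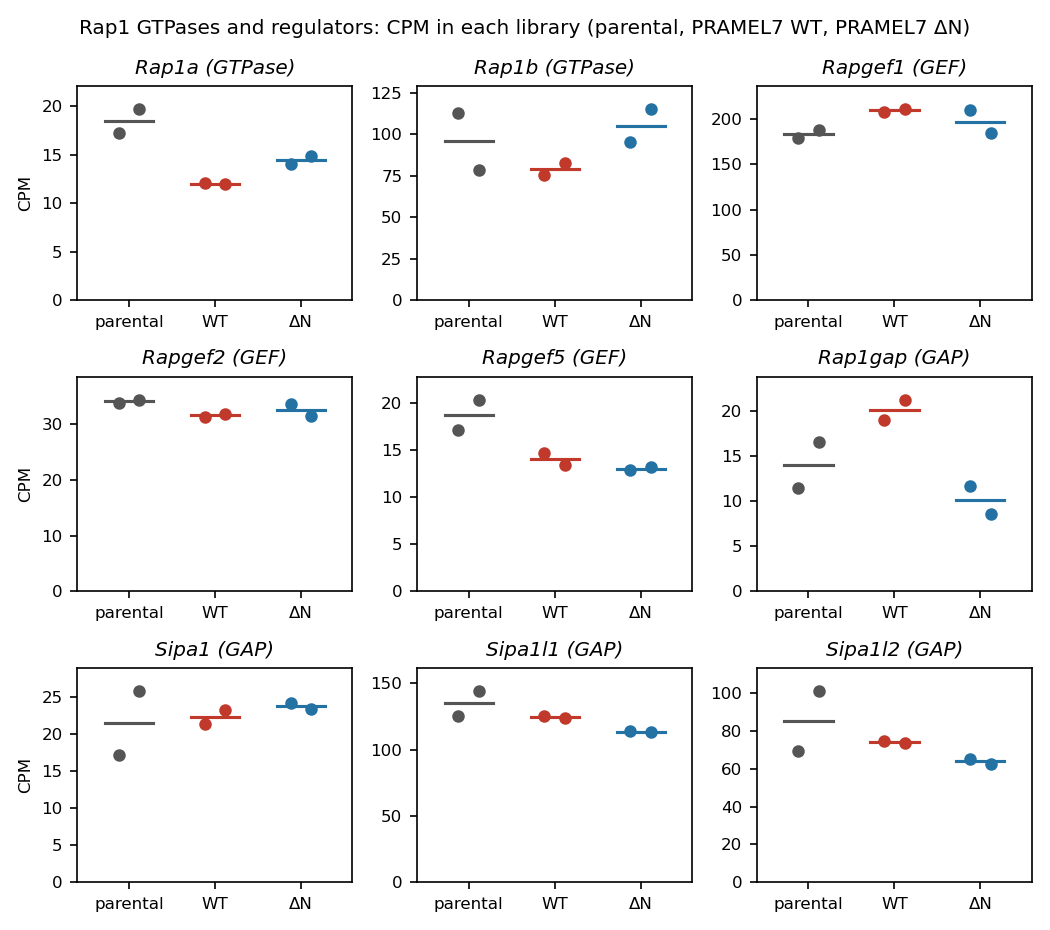
CPM of the 9 Rap1 genes in each library of parental ESCs (grey), ESC + PRAMEL7 WT (red) and ESC + PRAMEL7 ΔN (blue), with points for the 2 libraries of a line and a bar for their mean. *Rap1a* is lowest and *Rap1gap* highest in ESC + PRAMEL7 WT, and the parental points of *Rap1b*, *Rap1gap*, *Sipa1* and *Sipa1l2* lie far apart.

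*Rap1a*, on chromosome 3 from 105727267 to 105801336 (mm10), encodes one form of the GTPase itself. It had 17.2 and 19.7 CPM in the parental libraries, 12.1 and 12 CPM in ESC + PRAMEL7 WT and 14.1 and 14.9 CPM in ESC + PRAMEL7 ΔN. Both WT libraries lay below every other library, and the ΔN libraries lay between them and the parental ones. Parental ESCs had a mean of 18.4 ± 1.77 CPM (SD, n = 2) and ESC + PRAMEL7 WT one of 12 ± 0.03 CPM (SD, n = 2), or 0.652 times the parental level. The log2 fold change was -0.57 (standard error 0.13, adjusted P value 0.0124). For ESC + PRAMEL7 ΔN over parental ESCs it was -0.33 with a 95% confidence interval from -0.62 to -0.04 and an adjusted P value of 0.108, and for WT over ΔN it was -0.25 with an interval from -0.54 to 0.04 and an adjusted P value of 0.199. A lower *Rap1a* level in only one of the derived lines was therefore not shown. With either WT library left out, the adjusted P value in ESC + PRAMEL7 WT was 0.0955 or 0.0959 at log2 fold changes of -0.58 and -0.57, and in 17 of 19 alternative settings it stayed under 0.05. The 4 sense intronic genes within *Rap1a* had at most 7 reads in a library.

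*Rap1b*, on chromosome 10 from 117813871 to 117846035, encodes the other form of the GTPase and was the more abundant transcript. It had 113 and 78.7 CPM in the parental libraries, 75.3 and 82.7 CPM in ESC + PRAMEL7 WT and 95.2 and 115.3 CPM in ESC + PRAMEL7 ΔN. The parental libraries differed 1.44-fold, and 1 library of each derived line lay between them, whereas both WT libraries were below both ΔN libraries. None of the 3 comparisons passed the test. The log2 fold change was -0.26 for WT over parental ESCs (95% confidence interval -0.62 to 0.11, adjusted P value 0.263), 0.15 for ΔN over parental ESCs (interval -0.21 to 0.51, adjusted P value 0.562) and -0.40 for WT over ΔN (interval -0.76 to -0.04, adjusted P value 0.105). The last of these depended on the libraries that entered the pooled variance. Fitted by limma with only the libraries of the derived lines, it had the same log2 fold change of -0.40 with an adjusted P value of 0.0024. In that fit more genes passed in general, with 4647 of 12914 called between the derived lines against 2628 in the fit of all lines. Without parental library 2, *Rap1b* was lower in ESC + PRAMEL7 WT than in parental ESCs (log2 fold change -0.51, adjusted P value 0.00227), and without parental library 1 it was higher in ESC + PRAMEL7 ΔN (0.41, adjusted P value 0.00976).

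Among the exchange factors, *Rapgef5* was the member that passed the test. It lies on chromosome 12 from 117516479 to 117759737 and had 17.1 and 20.3 CPM in the parental libraries, 14.7 and 13.4 CPM in ESC + PRAMEL7 WT and 12.9 and 13.2 CPM in ESC + PRAMEL7 ΔN. Every library of the derived lines lay below both parental libraries. The mean of 18.7 ± 2.23 CPM (SD, n = 2) in parental ESCs fell to 13 ± 0.25 CPM (SD, n = 2) in ESC + PRAMEL7 ΔN, or 0.696 times, with a log2 fold change of -0.49 (standard error 0.13, adjusted P value 0.0317). In ESC + PRAMEL7 WT the log2 fold change was -0.39 (95% confidence interval -0.69 to -0.09) with an adjusted P value of 0.0601, and WT over ΔN gave 0.10 (interval -0.20 to 0.40, adjusted P value 0.632), so that no difference between the derived lines was shown. The call in ESC + PRAMEL7 ΔN stayed under 0.05 in only 7 of 19 alternative settings, with adjusted P values from 0.00496 to 0.161, and was lost with values centred by chromosome (0.0644).

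*Rapgef1*, on chromosome 2 from 29619720 to 29740978, encodes the exchange factor that adaptors of the Crk family bring to adhesion sites. It had 179 and 187.5 CPM in parental ESCs, 208 and 211 CPM in ESC + PRAMEL7 WT and 209.6 and 184 CPM in ESC + PRAMEL7 ΔN. Both WT libraries were above both parental ones, by a log2 fold change of 0.19 that did not pass the test (95% confidence interval -0.01 to 0.39, adjusted P value 0.143). The ΔN libraries overlapped with the parental ones (0.10, interval -0.10 to 0.30, adjusted P value 0.481). *Rapgef2*, on chromosome 3 from 79062516 to 79286517, encodes an exchange factor with a PDZ domain that acts at cell junctions. It was the steadiest member across the lines. Its CPM values were 33.8 and 34.4 in parental ESCs, 31.3 and 31.9 in ESC + PRAMEL7 WT and 33.7 and 31.5 in ESC + PRAMEL7 ΔN, and its log2 fold changes were -0.11 (interval -0.34 to 0.12), -0.06 (interval -0.29 to 0.17) and, for WT over ΔN, -0.04 (interval -0.27 to 0.19). The kit did not keep strand, and the antisense gene *4921511C10Rik* within *Rapgef2* had at most 3 reads.

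*Rap1gap*, which encodes a GTPase-activating protein acting on Rap1, was the member that differed most between the derived lines. It lies on chromosome 4 from 137664726 to 137729861 and had 11.5 and 16.5 CPM in the parental libraries, 18.9 and 21.2 CPM in ESC + PRAMEL7 WT and 11.6 and 8.6 CPM in ESC + PRAMEL7 ΔN. The WT libraries were above all others, and the ΔN libraries overlapped with the parental ones. The mean was 20.1 ± 1.6 CPM (SD, n = 2) in ESC + PRAMEL7 WT and 10.1 ± 2.15 CPM (SD, n = 2) in ESC + PRAMEL7 ΔN, a ratio of 1.98. The log2 fold change of WT over ΔN was 0.93 (standard error 0.19, adjusted P value 0.00951). Relative to the parental mean of 14 ± 3.6 CPM (SD, n = 2), neither line passed the test, with a log2 fold change of 0.51 in ESC + PRAMEL7 WT (95% confidence interval 0.08 to 0.94, adjusted P value 0.0791) and of -0.42 in ESC + PRAMEL7 ΔN (interval -0.85 to 0.01, adjusted P value 0.158). The difference between the derived lines stayed under 0.05 in 15 of 19 alternative settings. It was lost without WT library 1 (adjusted P value 0.0579), without WT library 2 (0.0938), without ΔN library 2 (0.104) and without the filter on low values (0.0537). The antisense gene *Rap1gapos*, whose reads could not be separated by strand, had at most 6 reads in a library. *Rap1gap* in this comparison was also the only member called with an absolute log2 fold change above 0.58. Of all genes, 12.5%, 11.3% and 11.3% were both called and above this limit in the 3 comparisons.

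The other GTPase-activating proteins did not pass the test in any comparison. *Sipa1*, on chromosome 19 from 5651185 to 5663707, had 17.1 and 25.8 CPM in the parental libraries, 21.3 and 23.2 CPM in ESC + PRAMEL7 WT and 24.1 and 23.3 CPM in ESC + PRAMEL7 ΔN. The derived lines lay within the parental range, which was the widest of all members at 1.51-fold, and log2 fold changes were 0.08 (95% confidence interval -0.31 to 0.46) and 0.17 (interval -0.22 to 0.55). *Sipa1l1*, on chromosome 12 from 82169320 to 82451786, encodes a relative of Sipa1 that is known from synapses. Its values were 125 and 144 CPM in parental ESCs, 125 and 123 CPM in ESC + PRAMEL7 WT and 114 and 113 CPM in ESC + PRAMEL7 ΔN. The ΔN libraries were the lowest, with a log2 fold change of -0.24 over parental ESCs (interval -0.45 to -0.04, adjusted P value 0.0971). *Sipa1l2*, on chromosome 8 from 125418063 to 125569808, belongs to the same subfamily and had 69.4 and 100.9 CPM in parental ESCs, 74.3 and 73.2 CPM in ESC + PRAMEL7 WT and 65.2 and 62.6 CPM in ESC + PRAMEL7 ΔN. Its ΔN libraries were likewise the lowest, with a log2 fold change of -0.38 (interval -0.72 to -0.05, adjusted P value 0.104), while the WT libraries lay within the parental range (-0.18, interval -0.52 to 0.16, adjusted P value 0.401).

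**Figure D2:**
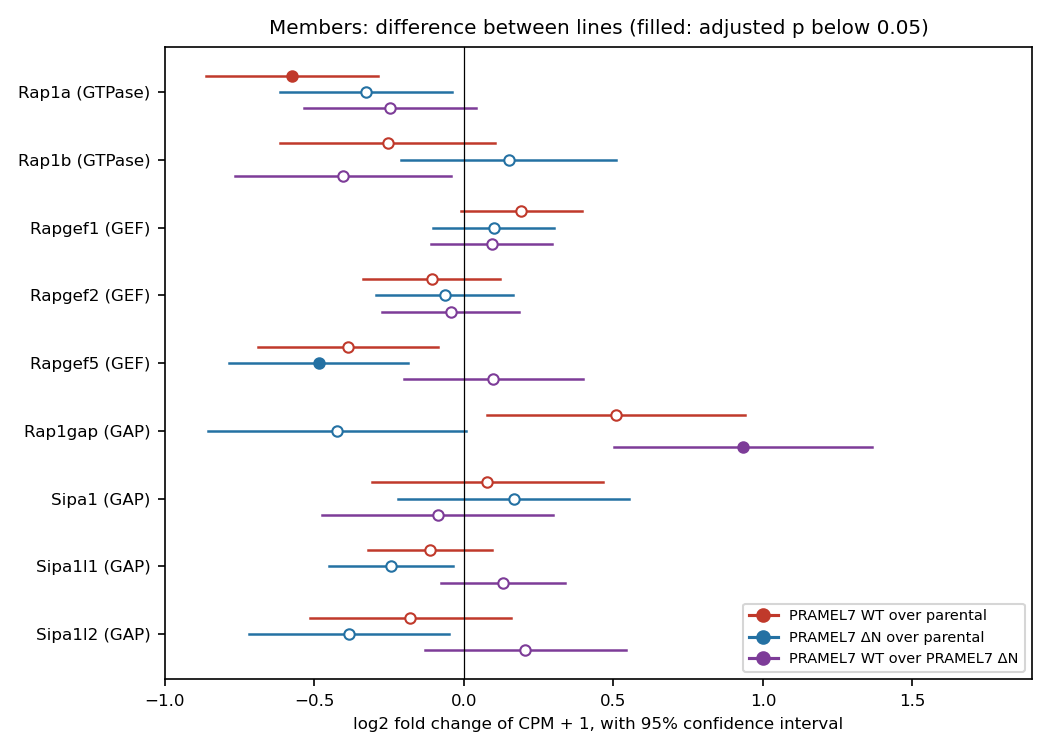
Log2 fold change of CPM + 1 with its 95% confidence interval for each member, for ESC + PRAMEL7 WT over parental ESCs (red), ESC + PRAMEL7 ΔN over parental ESCs (blue) and ESC + PRAMEL7 WT over ESC + PRAMEL7 ΔN (purple), with filled points for adjusted P values under 0.05. One point is filled in each comparison: *Rap1a* at -0.57, *Rapgef5* at -0.49 and *Rap1gap* at 0.93.

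The libraries of a line separated for many members, as they did for genes in general. For ESC + PRAMEL7 WT over parental ESCs, 6 of 9 members had libraries that did not overlap (2 higher and 4 lower), beside 64.2% of all genes (24.3% higher and 40% lower). For ESC + PRAMEL7 ΔN over parental ESCs there were 5 (all lower), beside 57% (21.6% higher and 35.4% lower), and for WT over ΔN 7 (4 higher and 3 lower), beside 68.8% (33.2% higher and 35.6% lower).

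The parental libraries decided many of these values. Of the 9 members, 8 were higher in parental library 2 than in library 1, and *Rap1b* was lower. The share of all genes that were higher in parental library 2 was not counted. The ratio of the higher to the lower library had a median of 1.18 over the members in parental ESCs, from 1.02 for *Rapgef2* to 1.51 for *Sipa1*, and of 1.02 in ESC + PRAMEL7 WT and 1.06 in ESC + PRAMEL7 ΔN. Over genes with at least 10 CPM these medians were 1.13, 1.06 and 1.08. Without parental library 2, 4 members were called in ESC + PRAMEL7 WT, namely *Rap1a*, *Rap1b*, *Rap1gap* and *Sipa1*, and without parental library 1, 3 were called, namely *Rap1a*, *Rapgef5* and *Sipa1l2*. Over all genes, 33.7% and 33.9% were called in these fits. In ESC + PRAMEL7 ΔN, leaving out parental library 1 gave 6 calls, which were *Rap1a*, *Rap1b*, *Rapgef5*, *Rap1gap*, *Sipa1l1* and *Sipa1l2*, and leaving out parental library 2 gave 1, which was *Sipa1*, beside 33.2% and 22.1% over all genes. In these fits the remaining parental library was assumed to vary like the other lines. *Rap1a* in ESC + PRAMEL7 WT was the call that both fits shared. *Sipa1* changed sign with the parental library, from 0.36 to -0.20 in ESC + PRAMEL7 WT and from 0.45 to -0.12 in ESC + PRAMEL7 ΔN, and *Rap1b* from -0.51 to 0.00 and from -0.11 to 0.41.

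**Figure D3:**
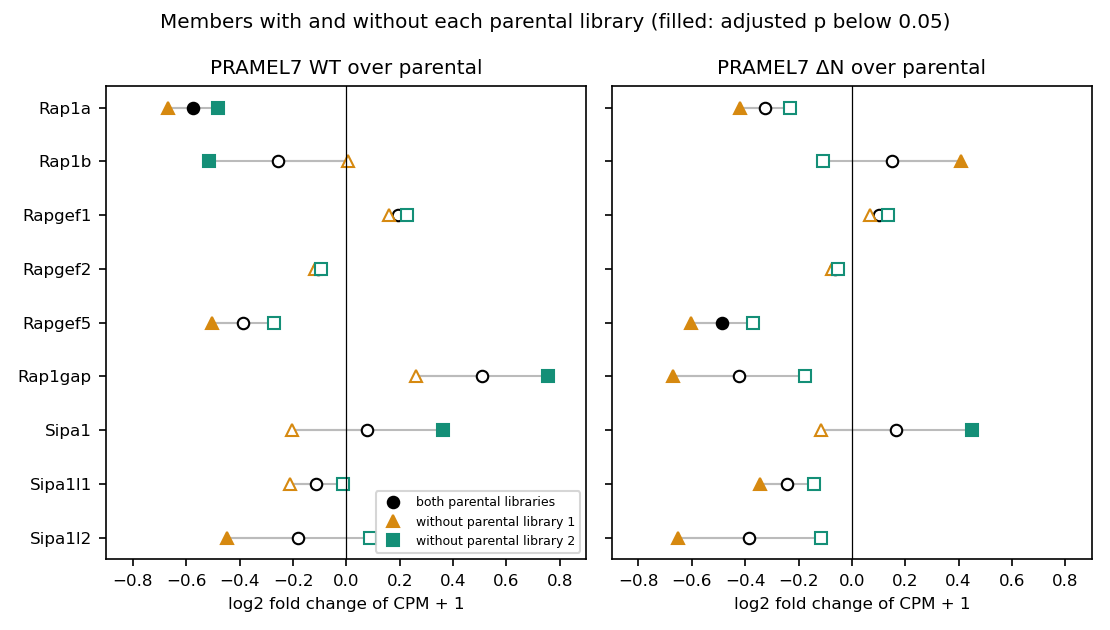
Log2 fold change of CPM + 1 over parental ESCs for each member in ESC + PRAMEL7 WT (left) and ESC + PRAMEL7 ΔN (right), fitted with both parental libraries (circles), without parental library 1 (triangles) and without parental library 2 (squares), with filled symbols for adjusted P values under 0.05. *Rap1a* stays between -0.67 and -0.48 on the left, whereas *Sipa1* crosses 0 in both panels.

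Levels were compared between the members per length of exon, as CPM per kb of exon, since the deposited RPKM values were divided by the whole gene with its introns. The exon length took in all annotated exons of a gene, over all its transcripts, and the order of members depends on it. *Rap1b* was the most abundant member at 26.1 to 40 CPM per kb over the 6 libraries, and *Rapgef1* followed at 24.2 to 28.6, above *Rap1b* in 1 library of ESC + PRAMEL7 WT. *Sipa1l1* came next at 8.84 to 11.3 and *Sipa1l2* at 6.5 to 10.5, ranges that overlap although the order was the same in every library. *Rap1a* (4.6 to 7.55) and *Sipa1* (3.87 to 5.83) changed places between libraries, as did *Rapgef2* (2.23 to 2.45) and *Rap1gap* (1.34 to 3.3). *Rapgef5* was the least abundant in every library, at 1.01 to 1.59. The order differed on the deposited RPKM scale. There *Sipa1* was above *Rapgef1* in parental library 2 (0.314 against 0.236) and below it in parental library 1 (0.208 against 0.225). *Rap1b* made up 78.3 to 87.5% of the *Rap1a* and *Rap1b* transcripts together on this scale, and 90.2 to 94.7% on that of the deposited RPKM.

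Summed by role, the GTPases made up 35.1 to 47.7% of the level of the 9 members per kb of exon, the exchange factors 29 to 36% and the GTPase-activating proteins 22.9 to 31.9%. Per gene span, as deposited, these shares were 34 to 47.5%, 20.6 to 26.1% and 30.9 to 43.7%. The order of exchange factors and GTPase-activating proteins therefore depended on the length used. The GTPase share per kb was 47.5 and 36.9% in the parental libraries, 35.1 and 36.6% in ESC + PRAMEL7 WT and 41.2 and 47.7% in ESC + PRAMEL7 ΔN. On this scale both WT libraries lay below the lower parental library, 1 ΔN library lay between the parental ones and 1 just above them. On the deposited RPKM scale the libraries of both derived lines all lay within the parental range, at 34.1 and 35.2% in ESC + PRAMEL7 WT and 39.3 and 45.6% in ESC + PRAMEL7 ΔN against 47.5 and 34% in parental ESCs. Both ΔN libraries were above both WT libraries on either scale.

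**Figure D4:**
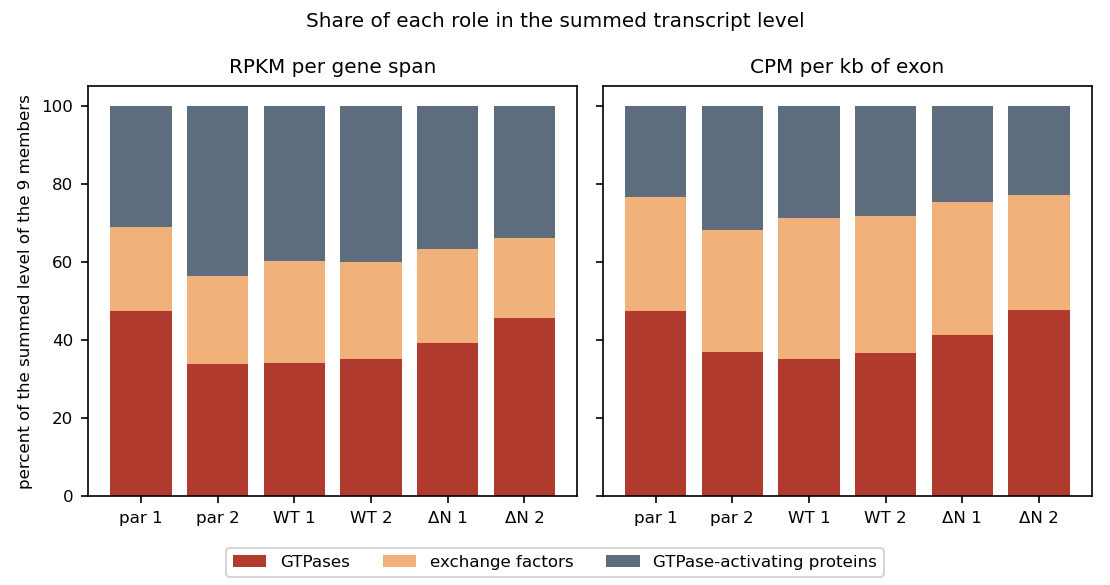
Percent of the summed level of the 9 members held by GTPases, exchange factors and GTPase-activating proteins in each library, on the deposited RPKM scale (left) and as CPM per kb of exon (right). The GTPase share runs from 34 to 47.5% on the left and from 35.1 to 47.7% on the right, with the ends of the left range both in parental ESCs.

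To place the members among genes with like patterns, each was compared with 8559 genes of at least 10 CPM by Pearson's r of log2(CPM + 1) over the 6 libraries. *Rap1gap* was most like *Rrp1* (r = 0.998), *Rap1a* most like *Pbrm1* (r = 0.998) and *Rapgef5* most like *Usp42* (r = 0.998). With 3 lines and 6 libraries such an r rests on few values. Of the 8559 genes, 185, 232 and 123 had an r above 0.95 with these members, and between 15 (*Rapgef2*) and 84 (*Sipa1l1*) with the other members.

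A further 39 genes of the Rap1 pathway put the members in context, of which 35 were tested and 4 were too low (*Rapgef4*, *Rasgrp3*, *Magi2* and *Apbb1ip*). In ESC + PRAMEL7 WT over parental ESCs, 14 of 35 were called (5 higher and 9 lower), in ESC + PRAMEL7 ΔN over parental ESCs 12 of 35 (5 higher and 7 lower), and for WT over ΔN 8 of 35 (3 higher and 5 lower). These are 40%, 34.3% and 22.9% of the genes tested, beside 25%, 19.9% and 20.4% over all genes. Their median log2 fold changes of -0.05, -0.06 and -0.04 lay near those over all genes, of -0.08, -0.06 and -0.02. In all, 18 of the 35 were called in at least 1 comparison.

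Of the 6 other exchange factors tested, 5 were called in ESC + PRAMEL7 WT, 4 in ESC + PRAMEL7 ΔN and 3 between the derived lines. Over all genes, 25%, 19.9% and 20.4% were called, and the difference in shares was not tested for so small a group. *Rapgef3*, the exchange factor opened by cyclic AMP, rose from 2.79 and 3.36 CPM in parental ESCs to 5.32 and 5.56 CPM in ESC + PRAMEL7 WT and to 9.99 and 8.82 CPM in ESC + PRAMEL7 ΔN. Its 3 groups did not overlap, with log2 fold changes of 0.66 (adjusted P value 0.0155), 1.35 (adjusted P value 0.000629) and, for WT over ΔN, -0.69 (adjusted P value 0.0147). *Rapgef6*, the closest relative of *Rapgef2*, fell from 53.2 and 55 CPM to 22.4 and 25.3 CPM in ESC + PRAMEL7 WT and to 35.4 and 36.7 CPM in ESC + PRAMEL7 ΔN. Its log2 fold changes were -1.15 (adjusted P value 0.000527), -0.57 (adjusted P value 0.00575) and, for WT over ΔN, -0.58 (adjusted P value 0.0054). *Dock4* fell in both derived lines (-0.66 and -0.49). *Rapgefl1* fell (-0.77) and *Rasgrp2*, which responds to calcium and diacylglycerol, rose (0.53) in ESC + PRAMEL7 WT. In ESC + PRAMEL7 ΔN the log2 fold changes of these 2 genes were -0.43 (adjusted P value 0.129) and 0.27 (adjusted P value 0.116). Neither gene passed the test between the derived lines (adjusted P values 0.208 and 0.122). *Plce1*, a phospholipase with an exchange domain, fell in ESC + PRAMEL7 ΔN (-0.75) and was higher in WT than in ΔN (0.63).

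Of the other GTPase-activating proteins, *Rap1gap2*, the paralogue of *Rap1gap*, had 21 and 26.4 CPM in parental ESCs, 11.8 and 12.3 CPM in ESC + PRAMEL7 WT and 25.1 and 25.1 CPM in ESC + PRAMEL7 ΔN. It was thus lowest in ESC + PRAMEL7 WT, where *Rap1gap* was highest, and its log2 fold change of WT over ΔN was -1.002 (adjusted P value 0.00114) against 0.93 for *Rap1gap*. *Rasa3*, which acts on R-Ras and Rap1, rose in ESC + PRAMEL7 WT (0.47), and its log2 fold change in ESC + PRAMEL7 ΔN was 0.45 (adjusted P value 0.0502). Among the Rap2 GTPases, *Rap2a* rose in ESC + PRAMEL7 ΔN (0.43), and its log2 fold change in ESC + PRAMEL7 WT was 0.35 (adjusted P value 0.0688). WT over ΔN gave 0.02 for *Rasa3* (adjusted P value 0.941) and -0.08 for *Rap2a* (adjusted P value 0.668). No difference between the derived lines was therefore shown for either gene. Of the genes for lipid modification and chaperones, *Rap1gds1*, which binds newly made Rap1, fell in both derived lines (-0.40 and -0.46), and *Fntb*, the beta subunit of farnesyltransferase, rose in ESC + PRAMEL7 WT (0.38) and was higher there than in ESC + PRAMEL7 ΔN (0.50).

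Of the 5 adaptors tested, 3 were called in each comparison with parental ESCs, beside 25% (WT) and 19.9% (ΔN) of all genes. *Crk*, which recruits Rapgef1, fell in ESC + PRAMEL7 WT (-0.65) and ESC + PRAMEL7 ΔN (-0.33), and the scaffold gene *Magi1* fell by similar amounts in both (-0.64 and -0.60). *Pdzd2*, which encodes a protein with PDZ domains, rose in both (0.75 and 1.05). Of the 12 effectors tested, 2 were called in ESC + PRAMEL7 WT and 3 in ESC + PRAMEL7 ΔN, beside the same 25% and 19.9% of all genes. *Rassf5*, which links Rap1 to integrins, fell from 5 and 4.94 CPM to 1.87 and 1.71 CPM in ESC + PRAMEL7 WT and to 1.66 and 2.01 CPM in ESC + PRAMEL7 ΔN, with log2 fold changes of -1.10 (adjusted P value 0.00252) and -1.08 (adjusted P value 0.00243). *Braf*, a kinase that both Ras and Rap1 can bind, moved in opposite directions, with -0.51 in ESC + PRAMEL7 WT (adjusted P value 0.0124), 0.45 in ESC + PRAMEL7 ΔN (adjusted P value 0.0222) and -0.96 between them (adjusted P value 0.000651). *Radil* was higher in WT than in ΔN (1.15), with parental libraries at 1.91 and 5.21 CPM. *Rapgef3*, *Rapgefl1*, *Plce1*, *Dock4*, *Rassf5* and *Radil* had means under 10 CPM.

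The median log2 fold change of some chromosomes was shifted in these lines, and several of the pathway genes lie on them. Whether such a shift covered a whole chromosome or part of it was not examined. The median log2 fold change of the 1102 genes tested on chromosome 11, which holds *Rapgef6*, *Rapgefl1*, *Rap1gap2* and *Crk*, was -0.36 in ESC + PRAMEL7 WT and -0.33 in ESC + PRAMEL7 ΔN. On chromosome 6, which holds *Magi1* and *Braf*, the median of 603 genes was -0.26, 0.25 and, for WT over ΔN, -0.39. With values centred by chromosome, *Rapgef6* (-0.79, adjusted P value 0.00115) and *Rap1gap2* (-0.55, adjusted P value 0.0151) still passed the test in ESC + PRAMEL7 WT, whereas *Crk* (-0.29, adjusted P value 0.0764), *Rapgefl1* (-0.41, adjusted P value 0.134), *Magi1* (-0.41, adjusted P value 0.063), *Braf* (-0.28, adjusted P value 0.108) and *Rap1gds1* of chromosome 3 (-0.30, adjusted P value 0.116) did not. *Rap2a* (0.43, adjusted P value 0.0386) and *Tln1* (0.29, adjusted P value 0.0409) passed there after centring only. In ESC + PRAMEL7 ΔN, *Rapgef6* (-0.24, adjusted P value 0.159), *Crk* (0.00, adjusted P value 0.989), *Braf* (0.27, adjusted P value 0.142) and *Dock4* of chromosome 12 (-0.42, adjusted P value 0.0895) no longer passed. *Magi1* (-0.78, adjusted P value 0.00466) kept its call, and *Rap1gap2* (0.43, adjusted P value 0.0488) and *Rasa3* (0.48, adjusted P value 0.037) passed after centring only. Between the derived lines *Braf* (-0.55, adjusted P value 0.00899), *Rapgef6* (-0.55, adjusted P value 0.00575) and *Rap1gap2* (-0.98, adjusted P value 0.000807) kept their calls. None of the 9 members lies on chromosome 6 or 11, but centring changed 1 of their 3 calls. *Rapgef5* no longer passed in ESC + PRAMEL7 ΔN (-0.41, adjusted P value 0.0644), whereas *Rap1a* in ESC + PRAMEL7 WT (-0.47, adjusted P value 0.0292) and *Rap1gap* between the derived lines (0.92, adjusted P value 0.00791) still passed. The medians of their chromosomes lay between -0.11 and 0.00 in ESC + PRAMEL7 WT, between -0.08 and -0.03 in ESC + PRAMEL7 ΔN and between -0.06 and 0.04 between the derived lines.

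**Figure D5:**
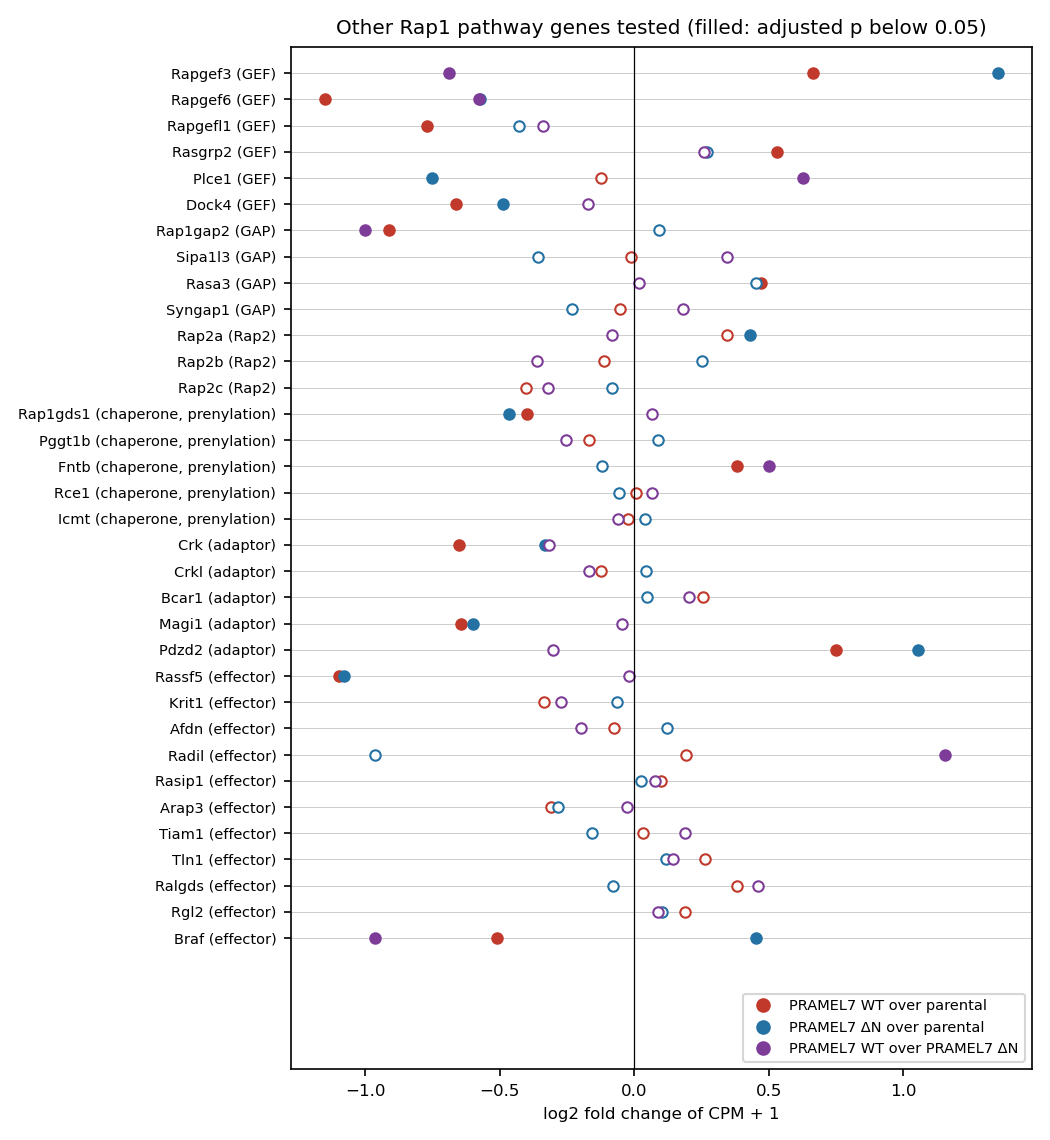
Log2 fold change of CPM + 1 for 34 of the 35 other Rap1 pathway genes tested, with their role in brackets, for ESC + PRAMEL7 WT over parental ESCs (red), ESC + PRAMEL7 ΔN over parental ESCs (blue) and ESC + PRAMEL7 WT over ESC + PRAMEL7 ΔN (purple), with filled points for adjusted P values under 0.05. Filled points lie on both sides of 0, from *Rapgef6* at -1.15 to *Rapgef3* at 1.35.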

How the data were processed

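Polyadenylated RNA of 3 ESC lines, 2 libraries each, had been sequenced without strand information. After SortMeRNA (ribosomal reads) and Trimmomatic, the authors aligned to mm10 with STAR and deposited RPKM from exon coverage; the submitters' processing notes also name Bowtie2 and Subread. The study's methods give triplicates, and 2 libraries per line were held. RPKM multiplied by gene span (GENCODE vM21) gave a whole number (tolerance 0.1) for 98.1 to 98.4% of values up to 20 reads, against at most 45.8% with exon length. This product, times one constant for all libraries, is CPM. Of 50978 genes, 176 with repeated or date-like names, 2796 without and 66 with several matches in the annotation were left out, which left 47940. The authors' own comparisons (fold changes, errors, P values and mean reads) and the 6 ChIP and input samples were not used here.

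The filter kept 12914 genes with over 1 CPM in 2 or more libraries. The test was limma 3.58.1 in R 4.3.3 on log2(CPM + 1), with all lines in one fit with a mean-variance trend and Benjamini-Hochberg adjustment. Fold changes on this scale understate those of low genes. Members, gene lists and tests were chosen with earlier results of these data known. Named were all 9 members, other pathway genes called in any comparison with a mean of at least 1 CPM, *Pramel7* and, for at most 3 members, the tested gene of at least 10 CPM with the most similar values. A pathway gene that met this rule is counted but not reported here. Low genes, *Tln1* and genes mentioned with markers were named after their values were seen. Alternatives were other pseudocounts, filters, scalings and call rules, limma without trend, voom on the recovered reads, RPKM without conversion (log2(RPKM + 0.1)), fits of 2 lines, a replicate block, centring by chromosome (for the pathway counts added after seeing the data) and leaving out each library. Exon sequences came from the mm10 reference genome with the GENCODE annotation.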

Additional observations from a re-analysis of the deposited data

Results flagged for a closer look

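*Rap1gap* was the only member for which the derived lines differed by a direct test, with a log2 fold change of 0.93 for ESC + PRAMEL7 WT over ESC + PRAMEL7 ΔN. Relative to the same parental libraries its log2 fold change was 0.51 in ESC + PRAMEL7 WT and -0.42 in ESC + PRAMEL7 ΔN, and neither passed the test. The ΔN libraries had 232 and 163 reads on the gene and the WT libraries 374 and 385. Groups of 2 libraries are too small to look for outlying samples.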

How the results depend on the processing

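Having 2 libraries per line limited every call. In the fit reported, limma gave 3, 4 and 2 members with an unadjusted P value under 0.05 in ESC + PRAMEL7 WT, in ESC + PRAMEL7 ΔN and between the derived lines, beside 39.7%, 33.1% and 35.4% of all genes. For the members, the 1 call in ESC + PRAMEL7 WT became 2 with median-ratio scaling and 2 with quantile normalization (*Rap1gap* added in both) and 0 with a log2 fold change limit, whether the P value was adjusted or not. The 1 call in ESC + PRAMEL7 ΔN became 0 without the filter, with the replicate block, with only the compared lines, with median-ratio scaling, with quantile normalization, with RPKM without conversion and with either fold limit, and *Rapgef5* also lost it when centred by chromosome (-0.4124, adjusted P value 0.0644). The 1 call between the derived lines became 0 without the filter and 2 with only these lines (*Rap1b* added). Leaving out single libraries gave 0 to 4, 0 to 6 and 0 to 2 calls; a lone library was assumed to vary like the rest.

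For the other pathway genes, the 14, 12 and 8 calls became 9, 7 and 5 without the filter and 7, 6 and 5 with RPKM without conversion. They became 9, 5 and 5 with the adjusted P value and fold limit and 9, 6 and 5 with the unadjusted one. A filter of 10 CPM left 7 in ESC + PRAMEL7 ΔN and 5 between the derived lines, and fits of only the compared lines gave 7 and 13. Leaving out single libraries gave 4 to 22, 4 to 17 and 2 to 13.

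Over all genes, the 3234, 2566 and 2628 calls became 1896, 1695 and 1427 without the filter, between 706 and 4374, between 838 and 4282 and between 712 and 4648 without single libraries, 1700 in ESC + PRAMEL7 ΔN and 4647 between the derived lines with only the compared lines, and 1621 between the derived lines with RPKM without conversion. The cause of these changes was not tested, apart from the samples and genes that each setting takes away.

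Log2 fold changes changed sign for *Rapgef2*, in ESC + PRAMEL7 ΔN (0.0083 with median-ratio scaling, 0.0094 with quantile normalization) and between the derived lines (0.0119 centred by chromosome). Without single libraries, ranges spanned 0 for *Rap1b* (-0.5143 to 0.0042 in ESC + PRAMEL7 WT, -0.11 to 0.4085 in ESC + PRAMEL7 ΔN), *Sipa1* (-0.2044 to 0.3615 and -0.1167 to 0.4492), *Sipa1l2* (-0.4471 to 0.0868 in ESC + PRAMEL7 WT), *Rapgef1* (-0.0016 to 0.1867) and *Rapgef2* (-0.091 to 0.0039), both between the derived lines. None of these was a called value. Of 513 values of members under the alternatives, 469 kept their sign and their side of the threshold, 10 changed sign, 16 passed and 18 no longer passed. Per exon length, exchange factors held 32.46% instead of 23.26% of the summed level, GTPase-activating proteins 26.7% instead of 37.45%, and *Rap1b* 84.76% instead of 93.38% of the GTPases.

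The replicate numbers were not treated as pairs: deviations from the line means, over 8560 genes, correlated at 0.32 between parental ESCs and ESC + PRAMEL7 WT, at -0.36 between parental ESCs and ESC + PRAMEL7 ΔN and at -0.12 between the derived lines. The replicate block gave 2729, 2112 and 2181 calls over all genes and among the members took the call from *Rapgef5* in ESC + PRAMEL7 ΔN (adjusted P value 0.053), with the other 2 calls kept.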
